A study of Mus musculus with 5 samples.

Results

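Hox cluster genes encode homeodomain transcription factors that lie side by side in 4 chromosomal clusters, named Hoxa to Hoxd. They were chosen here by name, as genes whose symbol is Hoxa, Hoxb, Hoxc or Hoxd followed by a number alone, without antisense and opposite-strand transcripts. Described here are 38 of the 24563 genes measured, with 10 in each of the Hoxa and Hoxb clusters and 9 in each of the Hoxc and Hoxd clusters. The rule uses the symbol alone.

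Total RNA from C57BL/6 mice was hybridised to one-colour microarrays, 1 for each of 5 groups, namely tissue taken 2 weeks or 4 weeks after a kidney bud was transplanted, and kidney at embryonic stage E13.5, at birth (P0) and at 8 weeks of age. The sources used here do not give the make-up of the buds, the site of transplantation, or how many animals went into an array. Without replicates no difference has a p-value, and every value below describes single arrays. A level is the log2 intensity of a gene's probe minus that of the array's 75th percentile, so that 0 lies at the 75th percentile, and levels are compared between arrays for 1 gene only. A difference is counted where it reaches 4-fold, which is 2 on the log2 scale. Where only 1 of the 2 arrays had the probe well above background, the difference is a bound and its fold is given as "at least". Such a bound holds for the main processing only. The share of all genes that reached the same fold in the same direction stands beside the first count in each comparison as the background.

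Hox genes are switched on in the order in which they lie along a cluster, and this order gives each level of the embryonic body axis its own combination. Genes at the same place in different clusters are paralogues, share their paralogue number and often act redundantly. In the mouse kidney the genes of paralogue group 11 (Hoxa11, Hoxc11 and Hoxd11) are needed in the metanephric mesenchyme, where their proteins act with Eya1 and Pax2 to switch on Six2 and Gdnf and so bring about branching of the ureteric bud. Genes of paralogue group 10 act in the renal stroma, while Hoxb7 is active in the ureteric bud and collecting duct.

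Between 60.9% and 69.1% of spots that are not controls were well above background, and the spots of probes printed more than once varied within an array by a median SD of 0.0517 to 0.06 on the log2 scale. The 2-week transplant shared slide 1 with the E13.5 kidney. The 4-week array shared slide 2 with the P0 and 8-week kidneys. Between arrays of different slides, the slide and the group cannot be told apart. Markers of cells outside the kidney differed between the arrays. The summed linear level (1 being the 75th percentile) of 8 adipocyte markers was 207 in the 2-week and 524 in the 4-week transplant, where all 8 were well above background, against 1.98 to 33.2 in the kidneys, where Adipoq, Cfd and Lep were not. That of 8 adrenal cortex markers was 207 in the 4-week transplant, with all 8 well above background. It was 0.306 in the 2-week transplant and 0.374 to 0.591 in the kidneys, and Cyp11a1, Cyp11b1 and Cyp11b2 were well above background on none of these 4 arrays. The 6 macrophage markers summed to 57.2 in the 2-week and 46.0 in the 4-week transplant, against 8.21 to 18.2 in the kidneys, and all 6 were well above background on every array. The 8 proximal tubule markers summed to 11.8 in the 2-week and 5.2 in the 4-week transplant, against 0.4 in the E13.5, 115 in the P0 and 1370 in the 8-week kidney. The 6 skeletal muscle markers summed to 0.569 in the 2-week and 1.10 in the 4-week transplant, against 9.43 in the E13.5, 0.286 in the P0 and 0.132 in the 8-week kidney, and 5 of the 6 were well above background in the E13.5 kidney. The 5 markers of fetal renal stroma, all well above background on every array, summed to 67.2 in the 2-week and 48.8 in the 4-week transplant, against 22.6 in the E13.5, 14.5 in the P0 and 3.39 in the 8-week kidney. Against the E13.5 kidney these markers were split. In the 2-week transplant 2 of 5 were at least 4-fold higher (11.3% of all genes) and 1 lower (5.42%), with a median of 0.68. In the 4-week transplant 1 was higher (12.7%) and 2 were lower (6.87%), with a median of -0.90. The 6 smooth muscle markers summed to 76.3 and 64.5 in the same transplants, against 4.41 in the E13.5, 53.7 in the P0 and 4.24 in the 8-week kidney. The 7 nephron progenitor markers summed to 36.1 in the 2-week and 20.4 in the 4-week transplant, against 81.1 in the E13.5, 61.1 in the P0 and 89.5 in the 8-week kidney. Eya1, which is among these markers, was highest in the 8-week kidney, but most single markers did not follow this sum. In the 8-week kidney 5 of the 7 were at least 4-fold lower than in the E13.5 kidney (12.6% of all genes). There 1 was higher (14.1%), and the median log2 difference was -3.22. Relative to the 8-week kidney the medians were 1.29 in the 2-week and 0.80 in the 4-week transplant. The 5 urothelium markers summed to 0.706 in the 2-week and 54.8 in the 4-week transplant, against 0.197 to 7.36 in the kidneys, and the 5 choroid plexus markers to 4.1 and 267, against 0.511 to 91.3. The part of these cell types in the Hox values was not tested, and in bulk tissue fewer cells of a type and less RNA per cell cannot be told apart.

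Most Hox genes were measured in the kidney at every age and in both transplants. Of the 38, 32 were well above background in the 2-week transplant and 30 in the 4-week transplant, against 35 in the E13.5, 34 in the P0 and 25 in the 8-week kidney. The shares of all spots that are not controls were, in the same order, 69.1%, 68.6%, 63.4%, 65.7% and 60.9%. The 8-week array thus had the lowest share for all spots too. Hoxb1, which patterns the hindbrain, Hoxb13, known from prostate and tail, and Hoxc13, known from hair and nails, were well above background on no array, and 25 genes were on all 5. Undetected genes were fewest among the central genes, paralogue groups 4 to 8. All 15 of them were detected in both transplants and in the E13.5 and P0 kidneys, and 13 in the 8-week kidney. Of the 7 anterior genes (groups 1 to 3), 5 and 4 were detected in the 2-week and 4-week transplants, against 6 in the E13.5, 6 in the P0 and 3 in the 8-week kidney. Of the 16 posterior genes (groups 9 to 13), 12 and 11 were detected in the 2-week and 4-week transplants, against 14 in the E13.5, 13 in the P0 and 9 in the 8-week kidney.

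Among the 35 genes detected on at least 1 array, 21 had their highest level in the E13.5 kidney and 8 in the P0 kidney. Hoxa7, Hoxa9 and Hoxc12 were highest in the 8-week kidney, although Hoxc12 was not well above background there. A second Hoxa9 probe had -2.13 in the 8-week kidney, against -1.79 in the E13.5 kidney, its highest array, so the order of the kidneys for Hoxa9 is not settled. Hoxc6 and Hoxc8 were highest in the 4-week transplant, and Hoxa13 in the 2-week transplant. Hoxc8 and Hoxa13 lay near background, so their order is not reliable. The lowest level lay in the 8-week kidney for 16 of the 35, in the 4-week transplant for 11 and in the 2-week transplant for 6. The highest and lowest arrays of all genes were not counted, so these counts have no background beside them and show nothing particular to Hox genes.

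**Figure D1:**
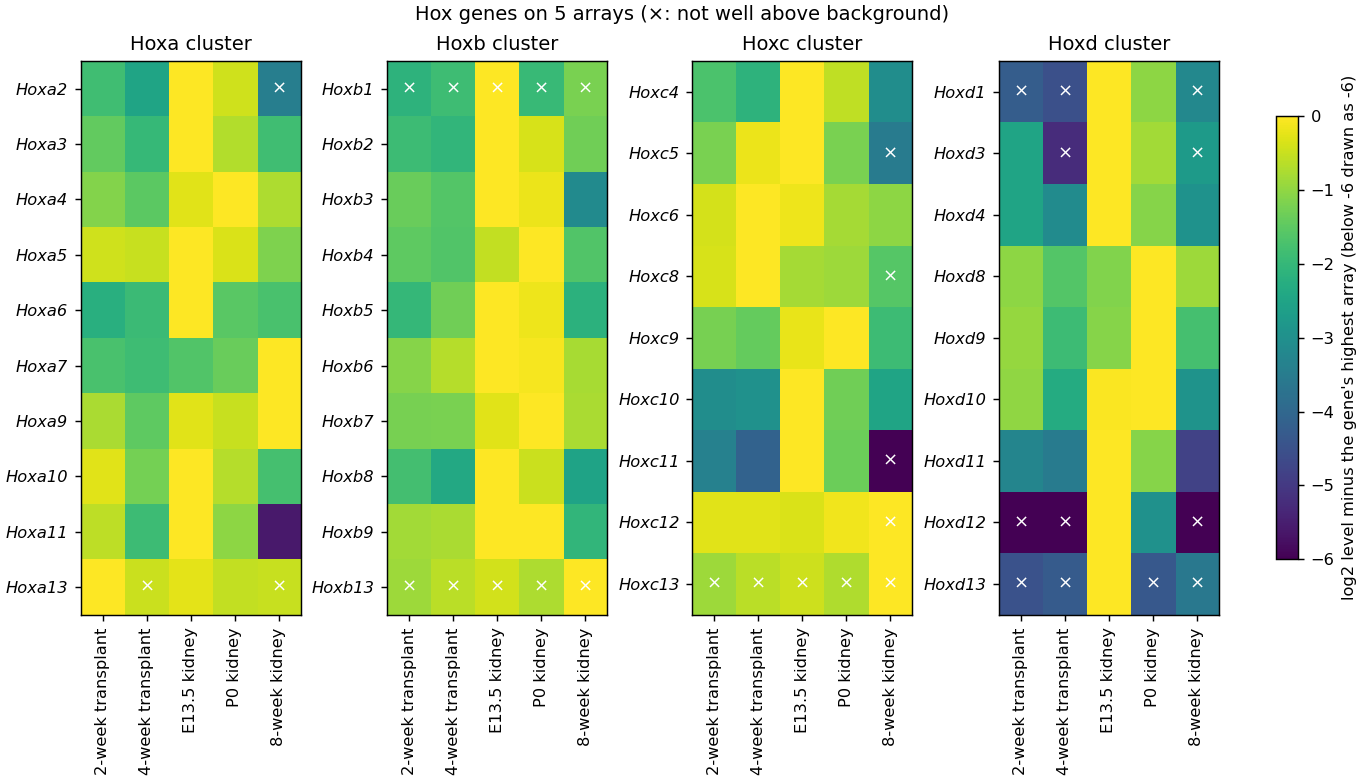
Level of each of the 38 Hox genes on each array (columns, transplants left of kidneys) as the log2 difference from that gene's highest array (colour, yellow for the highest), by cluster and in order of paralogue number down the page. A cross marks a probe not well above background, and crosses are most frequent in the 8-week kidney, where 25 of 38 genes were detected, against 35 in the E13.5 kidney. Of all spots that are not controls, 60.9% were well above background in the 8-week and 63.4% in the E13.5 kidney.

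The ages of the kidney were compared to show how the Hox genes of the growing organ differ from those of the adult one. In the 8-week kidney, 16 of 35 compared Hox genes were at least 4-fold lower than in the E13.5 kidney, against 12.6% of all genes. None was at least 4-fold higher, against 14.1% of all genes. The median difference of the Hox genes was -1.77 on the log2 scale, and that of all genes was -0.03. At 2-fold, 24 Hox genes were lower in the 8-week kidney and Hoxa7 alone was higher, against 27.3% of all genes in each direction. These arrays lie on different slides, and 6 of the 16 differences are bounds.

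Less of this difference was present at birth. In the P0 kidney, 2 of 35 Hox genes were at least 4-fold lower than in the E13.5 kidney, namely Hoxd12 and Hoxd13, against 1.83% of all genes. None was at least 4-fold higher, against 6.24% of all genes. At 2-fold, 10 were lower and 2 were higher, against 11.9% and 13.9% of all genes. The 10 lower genes were 5 of the Hoxd cluster, 3 of the Hoxc cluster and 2 of the Hoxa cluster, with none of the Hoxb cluster. Hoxd8 and Hoxd9 were the 2 that were higher at P0, by 1.14 and 1.10 on the log2 scale. Between the 8-week and P0 kidneys, which share a slide, 10 of 34 Hox genes were at least 4-fold lower in the 8-week kidney (background 9.35%) and none was higher (8.93%). Their median difference was -1.48, against 0.07 for all genes. At 2-fold, 21 were lower in the 8-week kidney (21.0%) and Hoxa7 was higher (23.6%).

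Both transplants had lower Hox levels than the E13.5 kidney. In the 2-week transplant, on the same slide as the E13.5 kidney, 10 of 35 Hox genes were at least 4-fold lower, against 5.42% of all genes, and the median difference was -1.09, against -0.11 for all genes. In the 4-week transplant 13 of 35 were at least 4-fold lower, against 6.87% of all genes, with medians of -1.31 for the Hox genes and -0.02 for all genes. No Hox gene was at least 4-fold higher in either, while 11.3% of all genes were in the 2-week and 12.7% in the 4-week transplant. At 2-fold, 19 were lower in the 2-week transplant (background 20.3%) and 23 in the 4-week transplant (21.8%), and none was higher in the 2-week (21.4%) or the 4-week transplant (24.4%). Since these comparisons and the one with the 8-week kidney use the same E13.5 array, an error on that array would enter all of them. Against the P0 kidney, 4 of 34 Hox genes were at least 4-fold lower in the 2-week transplant (background 3.38%) and 7 of 34 in the 4-week transplant (4.36%). None was at least 4-fold higher in the 2-week (6.85%) or the 4-week transplant (8.66%).

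One processing setting changed many of these calls. Under normexp background correction with negative control spots, 33 of the 54 Hox differences of 4-fold in the 8 main comparisons stayed at 4-fold, namely 28 of 36 measured differences and 5 of 18 bounds, and all 54 kept their direction. No 4-fold difference stayed under it for Hoxa6, Hoxb2, Hoxb5, Hoxb9, Hoxc5, Hoxd1, Hoxd3 and Hoxd13, while all of those of Hoxa11, Hoxd11, Hoxc10 and Hoxd4 did.

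Differences of 8-fold were found for fewer genes. Against the E13.5 kidney, 5 of 35 Hox genes were at least 8-fold lower in the 2-week transplant (background 1.70%), 5 in the 4-week transplant (2.41%), 7 in the 8-week kidney (6.33%) and none in the P0 kidney (0.552%). The 5 were Hoxc10, Hoxc11, Hoxd1, Hoxd11 and Hoxd12 in the 2-week transplant, and Hoxc11, Hoxd3, Hoxd4, Hoxd11 and Hoxd12 in the 4-week transplant. Between the 8-week and P0 kidneys 4 of 34 were at least 8-fold lower in the 8-week kidney (4.42%).

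The clusters were not equally represented. In the 2-week transplant, 6 of 9 compared Hoxd genes were at least 4-fold lower than in the E13.5 kidney, with a median of -2.48, against 1 of 10 Hoxa, 1 of 8 Hoxb and 2 of 8 Hoxc genes. In the 4-week transplant 7 of 9 Hoxd genes were, with a median of -2.98, against 1 of 10 Hoxa, 2 of 8 Hoxb and 3 of 8 Hoxc genes. In the 8-week kidney the Hoxd cluster again had the lowest median (-2.72), with 6 of 9 genes at least 4-fold lower, against 2 of 10 Hoxa, 4 of 8 Hoxb and 4 of 8 Hoxc genes. This order in the 8-week kidney turned under normexp with negative controls, where the median was -1.33 for Hoxd, -1.58 for Hoxc and -1.54 for Hoxb, while in both transplants Hoxd kept the lowest median under it (-1.66 and -1.76). The Hoxd genes within 2-fold of the E13.5 kidney in both transplants were the neighbours Hoxd8 and Hoxd9. No test of a difference between clusters is possible with these arrays.

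The position along a cluster did not order the differences. Spearman's rho between paralogue number and the difference from the E13.5 kidney, given as a description over 35 genes that share their arrays, was 0.19 for the 2-week transplant, 0.07 for the 4-week transplant and 0.06 for the 8-week kidney. Differences were larger at the ends of the clusters than between them, except among the posterior genes of the 2-week transplant. In the 8-week kidney the medians were -2.55 for 6 anterior, -1.06 for 15 central and -1.90 for 14 posterior genes. In the 4-week transplant they were -2.27, -0.93 and -1.57 for the same classes, and in the 2-week transplant -1.86, -0.96 and -0.88.

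**Figure D2:**
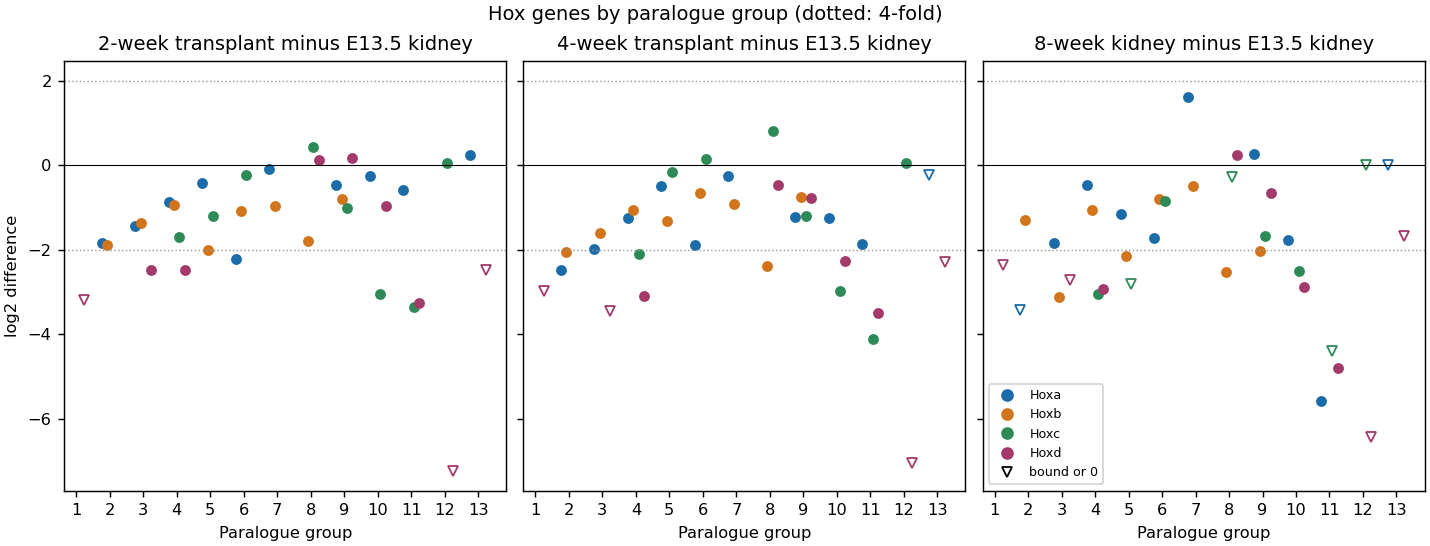
Log2 difference from the E13.5 kidney (vertical axis) of each compared Hox gene by paralogue group (horizontal axis) and cluster (colour) for the 2-week transplant, the 4-week transplant and the 8-week kidney. Dotted lines mark 4-fold, and open triangles are bounds or bounds set to 0. All 3 genes of paralogue group 11 lie below -4 in the 8-week kidney, while in both transplants Hoxa11 lies within 4-fold and Hoxc11 and Hoxd11 do not.

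Paralogue group 11, the group with the established role in the kidney mesenchyme, had the lowest median of any group with 3 or more compared genes in the 8-week kidney, -4.81 against the E13.5 kidney. Its members were at least 4-fold lower in 3 of 3 cases there. In the transplants they did not share 1 course.

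Hoxa11 had a level of 1.80 in the 2-week transplant and 0.51 in the 4-week transplant, against 2.39 in the E13.5, 1.36 in the P0 and -3.19 in the 8-week kidney. Its level is the mean of the 9 spots kept after outliers were dropped, more than for any other Hox gene. Only the 8-week kidney stands apart, and the 2-week transplant lies between the E13.5 and P0 kidneys. Hoxa11 was 47.8-fold lower in the 8-week than in the E13.5 kidney. Against the 8-week kidney it was 31.9-fold higher in the 2-week transplant and higher by 3.70 on the log2 scale in the 4-week transplant, and the 4-week transplant shares a slide with it. Across the other processing settings the log2 difference from the 8-week kidney ranged from 4.33 to 5.54 for the 2-week and from 3.06 to 4.06 for the 4-week transplant. From the E13.5 kidney it differed by -0.58 in the 2-week and by -1.87 in the 4-week transplant, both within 4-fold.

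Hoxd11, its paralogue in the Hoxd cluster, had levels of -2.57 in the 2-week and -2.81 in the 4-week transplant, against 0.69 in the E13.5, -0.41 in the P0 and -4.12 in the 8-week kidney. Both transplants thus lie between the P0 and the 8-week kidney. Hoxd11 was 9.56-fold lower in the 2-week and 11.3-fold lower in the 4-week transplant than in the E13.5 kidney, and 2.94-fold and 2.49-fold higher than in the 8-week kidney. A separate probe for Hoxd11 gave the same directions, with log2 differences from the E13.5 kidney of -2.56 in the 2-week transplant, -3.75 in the 4-week transplant and -5.11 in the 8-week kidney.

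Hoxc11 had levels of -4.34 in the 2-week and -5.09 in the 4-week transplant, against -0.98 in the E13.5 and -2.32 in the P0 kidney, and it was not well above background in the 8-week kidney. It was 10.3-fold lower in the 2-week and 17.3-fold lower in the 4-week transplant than in the E13.5 kidney. In the 8-week kidney it was at least 21.2-fold lower than in the E13.5 kidney. As a log2 difference this bound was -4.40, and -2.89 under normexp with negative controls. Of the group's 3 genes, Hoxa11 alone stayed within 4-fold of the E13.5 kidney in both transplants.

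Hoxd12, which acts in the distal limb and the urogenital tract, had the largest differences from the E13.5 kidney of all Hox genes compared, in both transplants and in the 8-week kidney. Its level was 1.05 in the E13.5 and -1.91 in the P0 kidney, and it was not well above background elsewhere. As intensities these were 6.49 in the 2-week and 6.80 in the 4-week transplant, against 3347 in the E13.5, 457.6 in the P0 and 8.24 in the 8-week kidney. It was 7.77-fold lower in the P0 than in the E13.5 kidney, the array with the highest skeletal muscle markers, whose part in this was not tested. It was at least 151-fold lower in the 2-week transplant, at least 132-fold lower in the 4-week transplant and at least 86.1-fold lower in the 8-week kidney than in the E13.5 kidney. These bounds depend on the background correction: as log2 differences they were -7.24, -7.04 and -6.43, and under normexp with negative controls -5.20, -4.99 and -4.56, where Hoxa11 had the larger difference in the 8-week kidney (-5.04).

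The sequences before the start sites of Hoxa11, Hoxd11 and Hoxd12 are shown because these posterior genes, all detected in the E13.5 and P0 kidneys, parted in the transplants: Hoxa11 stayed within 4-fold of the E13.5 kidney, Hoxd11 was lower and Hoxd12 was not well above background. They are the 250 bases upstream of a RefSeq start site on build GRCm38.p6, where Hoxa11 is at chr6:52245811-52246060 on the minus strand, Hoxd11 at chr2:74682073-74682322 on the plus strand and Hoxd12 at chr2:74674763-74675012 on the plus strand. Hoxd11 has another annotated start, whose window is not shown. Capitals mark matches to the motifs described next.
Hoxa11: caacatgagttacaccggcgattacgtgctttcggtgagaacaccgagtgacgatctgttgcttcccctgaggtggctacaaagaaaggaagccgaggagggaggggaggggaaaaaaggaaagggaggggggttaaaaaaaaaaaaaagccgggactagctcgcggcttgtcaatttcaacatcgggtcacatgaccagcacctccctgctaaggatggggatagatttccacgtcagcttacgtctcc
Hoxd11: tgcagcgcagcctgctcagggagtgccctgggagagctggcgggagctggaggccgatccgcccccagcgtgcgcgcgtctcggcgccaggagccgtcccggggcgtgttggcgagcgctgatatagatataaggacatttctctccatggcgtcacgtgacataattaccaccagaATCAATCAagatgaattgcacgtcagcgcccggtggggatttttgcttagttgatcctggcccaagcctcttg
Hoxd12: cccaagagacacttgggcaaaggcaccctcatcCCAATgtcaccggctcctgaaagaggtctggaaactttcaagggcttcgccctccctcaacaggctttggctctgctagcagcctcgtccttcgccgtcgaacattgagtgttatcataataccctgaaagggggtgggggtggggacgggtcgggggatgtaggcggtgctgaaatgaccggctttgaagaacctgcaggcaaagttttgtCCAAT

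Motifs were searched on both strands, with overlapping matches allowed, in 24 windows of 22 Hox genes and in all 32851 windows of the same length. TGATNNAT, the composite motif of Pbx and Hox proteins, was in 4 of the 24 Hox windows and in 7.68% of all windows. Its match in the Hoxd11 window is the stretch in capitals, on the reverse strand. CCAAT, the motif of NF-Y, was in 14 of 24 and in 33.8%, and Hoxd12 holds it at 2 places. TATAAA, the TATA box, was in 4 of 24 and in 12.4%, and TTTATGG, a motif of Cdx proteins, in 1 of 24 (Hoxd4) and in 2.43%. The Hoxa11 window holds none of the 4, and neither does the window at the other Hoxd11 start. The median GC content was 58.6% in the Hox windows and 52.4% in all windows, and the median ratio of observed to calculated CpG was 0.72 and 0.37. A match describes letters in the window and does not show binding.

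The genes of paralogue group 10, which act with group 11 in limb and kidney, were lower in the 8-week than in the E13.5 kidney in 2 of 3 cases at 4-fold and in 3 of 3 at 2-fold. Hoxa10 had levels of 0.78 in the 2-week and -0.22 in the 4-week transplant, against 1.04 in the E13.5, 0.38 in the P0 and -0.73 in the 8-week kidney. It was 1.20-fold lower in the 2-week and 2.39-fold lower in the 4-week transplant than in the E13.5 kidney. Hoxa10 and Hoxa11, which adjoin each other, were thus the 2 genes of groups 10 and 11 within 4-fold of the E13.5 kidney in both transplants.

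Hoxd10 had levels of -0.82 in the 2-week and -2.13 in the 4-week transplant, against 0.14 in the E13.5, 0.17 in the P0 and -2.74 in the 8-week kidney. It was 1.95-fold lower in the 2-week and 4.83-fold lower in the 4-week transplant than in the E13.5 kidney. The 2-week transplant thus lies nearer the early kidneys and the 4-week transplant nearer the 8-week kidney.

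Hoxc10 had levels of -2.82 in the 2-week and -2.74 in the 4-week transplant, against 0.23 in the E13.5, -1.07 in the P0 and -2.27 in the 8-week kidney. Here both transplants lie below every kidney by level. The intensities before scaling were 242.8 in the 2-week and 225.1 in the 4-week transplant, against 242 in the 8-week kidney. The order of the 2-week transplant and the 8-week kidney thus rests on the scaling. Hoxc10 was 8.27-fold lower in the 2-week and 7.83-fold lower in the 4-week transplant than in the E13.5 kidney, and within 2-fold of the 8-week kidney in both.

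Paralogue group 9 acts in the patterning of ribs, limbs and motor neurons, and none of its 4 genes was 4-fold from the E13.5 kidney in either transplant. Hoxb9 had levels of 0.42 in the 2-week and 0.48 in the 4-week transplant, against 1.23 in the E13.5, 1.25 in the P0 and -0.79 in the 8-week kidney. Hoxc9 had levels of 0.90 in the 2-week and 0.71 in the 4-week transplant, against 1.92 in the E13.5, 2.13 in the P0 and 0.25 in the 8-week kidney. For both genes the transplants lie between the early kidneys and the 8-week kidney. Only Hoxb9 reached 4-fold in the 8-week kidney, at 4.06-fold lower than in the E13.5 kidney, and Hoxc9 was 3.18-fold lower there.

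Hoxd9 had levels of 0.32 in the 2-week and -0.62 in the 4-week transplant, against 0.16 in the E13.5, 1.26 in the P0 and -0.50 in the 8-week kidney, with the P0 kidney highest. Hoxa9, also known for its part in blood progenitors, had levels of -2.28 in the 2-week and -3.02 in the 4-week transplant, against -1.79 in the E13.5, -2.02 in the P0 and -1.52 in the 8-week kidney. It was 2.82-fold lower in the 4-week transplant than in the 8-week kidney. Another probe for Hoxa9, well above background on all 5 arrays, had -2.56 in the 2-week and -3.48 in the 4-week transplant, against -1.79 in the E13.5, -2.67 in the P0 and -2.13 in the 8-week kidney. The 4-week transplant is the lowest array for both probes, while the 2-week transplant lies below every kidney by the first and above the P0 kidney by the second. By both probes the 8-week kidney was within 2-fold of the early kidneys.

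Of the remaining posterior genes, Hoxd13, which patterns digits, was well above background in the E13.5 kidney alone, at a level of -3.71. It was at least 5.58-fold lower in the 2-week transplant, at least 4.87-fold lower in the 4-week transplant, at least 4.95-fold lower in the P0 kidney and at least 3.19-fold lower in the 8-week kidney. Hoxa13, which acts in digits and the genital tubercle, had levels of -5.38 in the 2-week transplant, -5.63 in the E13.5 and -5.92 in the P0 kidney, close to the detection limit, and was not well above background in the other arrays. Hoxc12, known from hair follicles, had levels of -5.27 in both transplants, -5.32 in the E13.5 and -5.12 in the P0 kidney, with no difference of 2-fold.

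**Figure D3:**
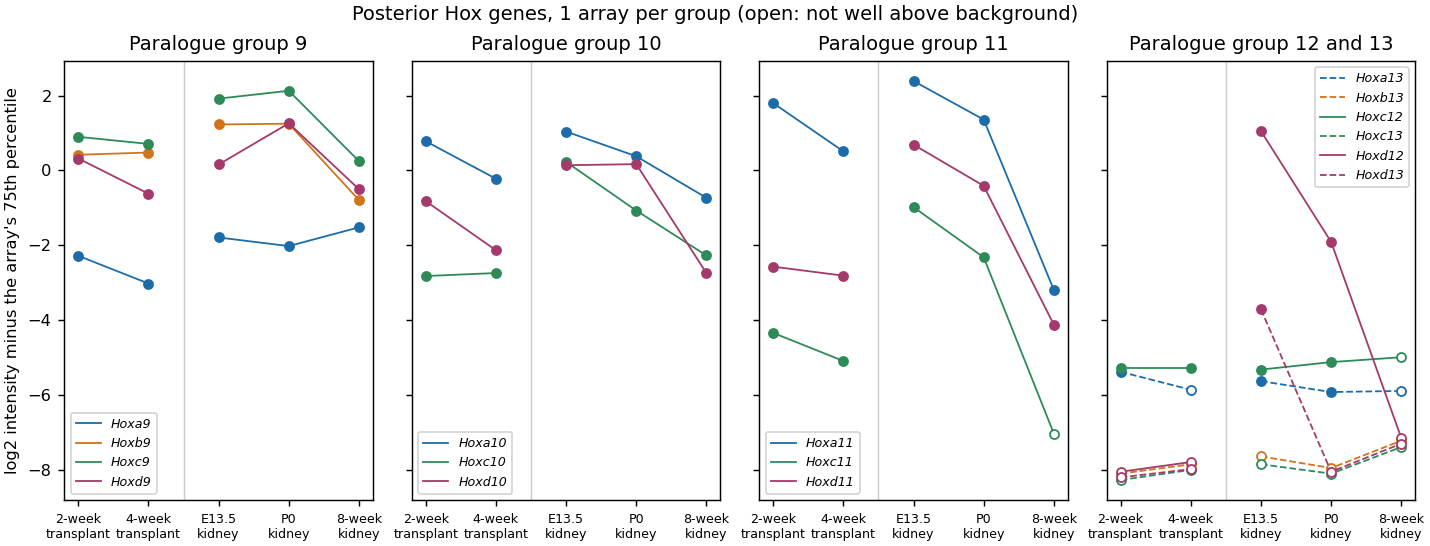
Level of the 16 posterior Hox genes (log2 intensity minus the array's 75th percentile) on each array, by paralogue group (panels) and cluster (colours), with the transplants left of the kidneys. Each point is 1 array, filled where the probe was well above background, and lines join arrays of 1 kind. Hoxa11 is at 1.80 and 0.51 in the transplants, against -3.19 in the 8-week kidney, while Hoxd12 is well above background only in the E13.5 and P0 kidneys.

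Among the anterior genes, those of groups 2 and 3 specify the hindbrain, pharyngeal arches and neck. Hoxa2, which gives the arches behind the jaw their identity, had levels of -3.65 in the 2-week and -4.29 in the 4-week transplant, against -1.80 in the E13.5 and -2.24 in the P0 kidney, and was not well above background in the 8-week kidney. It was 3.58-fold lower in the 2-week and 5.58-fold lower in the 4-week transplant than in the E13.5 kidney. In the 8-week kidney the bound was -3.42 on the log2 scale. Its levels in both transplants lie below those of the E13.5 and P0 kidneys.

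Hoxb2 had levels of 0.00 in the 2-week and -0.17 in the 4-week transplant, against 1.88 in the E13.5, 1.52 in the P0 and 0.58 in the 8-week kidney. It reached 4-fold only in the 4-week transplant, at 4.15-fold lower than in the E13.5 kidney, and both transplants lie below every kidney. Before scaling, the 2-week transplant and the 8-week kidney were close for Hoxb2, with intensities of 1713 and 1753. Hoxb3 had levels of -1.19 in the 2-week and -1.42 in the 4-week transplant, against 0.18 in the E13.5, 0.00 in the P0 and -2.94 in the 8-week kidney. It was 8.69-fold lower in the 8-week than in the E13.5 kidney, a log2 difference of -3.12, but another probe for Hoxb3 gave -0.86.

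Hoxd1, which acts in sensory neurons, was well above background only in the E13.5 and P0 kidneys, at -3.01 and -4.02. It was at least 9.06-fold lower in the 2-week transplant, at least 7.92-fold lower in the 4-week transplant and at least 5.18-fold lower in the 8-week kidney than in the E13.5 kidney. As a log2 difference the 8-week bound was -2.37, and -1.05 under normexp with negative controls. Hoxd3, needed for the atlas vertebra, had a level of -5.02 in the 2-week transplant, against -2.53 in the E13.5 and -3.36 in the P0 kidney, and was not well above background in the 4-week transplant and the 8-week kidney. It was 5.60-fold lower in the 2-week transplant, and at least 6.58-fold lower in the 8-week kidney, than in the E13.5 kidney, and the bound for the 4-week transplant was -3.46 on the log2 scale. For both Hoxd genes the E13.5 kidney was highest and both transplants lay below the P0 kidney.

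The central genes did not share 1 course. Hoxd4 had levels of -2.05 in the 2-week and -2.66 in the 4-week transplant, against 0.44 in the E13.5, -0.65 in the P0 and -2.49 in the 8-week kidney. It was 5.63-fold lower in the 2-week transplant, 8.60-fold lower in the 4-week transplant and 7.65-fold lower in the 8-week kidney than in the E13.5 kidney. The transplants and the 8-week kidney lie within 2-fold of each other and below the early kidneys.

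Hoxc4 had levels of -0.78 in the 2-week and -1.19 in the 4-week transplant, against 0.92 in the E13.5, 0.35 in the P0 and -2.13 in the 8-week kidney. It was 4.33-fold lower in the 4-week transplant and 8.29-fold lower in the 8-week kidney than in the E13.5 kidney, and within 4-fold in the 2-week transplant. Hoxb8, also used to hold blood progenitors in culture, had levels of 0.29 in the 2-week and -0.29 in the 4-week transplant, against 2.09 in the E13.5, 1.60 in the P0 and -0.44 in the 8-week kidney. It was 5.21-fold lower in the 4-week transplant and 5.78-fold lower in the 8-week kidney than in the E13.5 kidney. For Hoxc4 and Hoxb8 the early kidneys are the 2 highest arrays.

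Hoxb5 had levels of -1.93 in the 2-week and -1.23 in the 4-week transplant, against 0.07 in the E13.5, -0.08 in the P0 and -2.08 in the 8-week kidney. It stood at the threshold, 4.00-fold lower in the 2-week transplant and 4.44-fold lower in the 8-week kidney than in the E13.5 kidney. Hoxa6 had levels of -4.78 in the 2-week and -4.46 in the 4-week transplant, against -2.56 in the E13.5, -4.09 in the P0 and -4.28 in the 8-week kidney. It was 4.67-fold lower in the 2-week transplant than in the E13.5 kidney, which is the only array above -4 for it.

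Hoxc5 was the Hox gene with the largest difference in favour of the 4-week over the 2-week transplant. Its level was -3.78 in the 2-week and -2.76 in the 4-week transplant, against -2.58 in the E13.5 and -3.79 in the P0 kidney, and it was not well above background in the 8-week kidney. The 2-week transplant is near the P0 kidney and the 4-week transplant near the E13.5 kidney. It was at least 6.16-fold higher in the 4-week transplant and at least 3.03-fold higher in the 2-week transplant than in the 8-week kidney, and at least 6.95-fold lower in the 8-week than in the E13.5 kidney.

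Hoxa7 ran the other way in the adult kidney. Its level was 1.66 in the 2-week and 1.51 in the 4-week transplant, against 1.76 in the E13.5, 2.02 in the P0 and 3.38 in the 8-week kidney. The 8-week kidney is the highest array and the 2 transplants the lowest. Hoxa7 was 3.07-fold higher in the 8-week than in the E13.5 kidney, and 3.30-fold lower in the 2-week and 3.66-fold lower in the 4-week transplant than in the 8-week kidney.

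The other 8 central genes and Hoxa3 (thymus and parathyroid) stayed within 4-fold in all 10 pairs of arrays. Hoxc6 and Hoxc8 of the Hoxc cluster, which specify the thoracic region, had their highest values in the 4-week transplant. Hoxc8 lay near background, where the order is not reliable, and Hoxc6 was only 0.15 on the log2 scale above the E13.5 kidney. Hoxc6 had levels of 1.21 in the 2-week and 1.60 in the 4-week transplant, against 1.45 in the E13.5, 0.79 in the P0 and 0.59 in the 8-week kidney. Hoxc8 had levels of -4.68 in the 2-week and -4.31 in the 4-week transplant, against -5.11 in the E13.5 and -5.19 in the P0 kidney, and was not well above background in the 8-week kidney. Their neighbour Hoxc9 was highest in the P0 kidney. Hoxb7, the ureteric bud gene, had levels of 1.25 in the 2-week and 1.28 in the 4-week transplant, against 2.21 in the E13.5, 2.48 in the P0 and 1.71 in the 8-week kidney. By these levels both transplants lie below the kidneys. The intensities before scaling were 4085 in the 2-week transplant and 3841 in the 8-week kidney, so the order of these 2 arrays rests on the scaling. The remaining 5 of these central genes were Hoxa4, Hoxa5, Hoxb4, Hoxb6 and Hoxd8.

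Few Hox genes were 4-fold apart between a transplant and the adult kidney, and both comparisons use the same 8-week array. In the 2-week transplant, 1 of 32 compared Hox genes was at least 4-fold higher than in the 8-week kidney, against 11.8% of all genes, and none was at least 4-fold lower, against 8.67%. That gene was Hoxa11. In the 4-week transplant, on the slide of the 8-week kidney, 2 of 30 were at least 4-fold higher (Hoxa11 and Hoxc5), against 11.7% of all genes, and none was lower, against 7.80%. The median difference was 0.53 in the 2-week transplant, against -0.01 for all genes. It was 0.22 in the 4-week transplant, against 0.00 for all genes, and -0.06 without the filter on dim probes, so its direction is not settled. At 8-fold, Hoxa11 was the 1 Hox gene higher in the 2-week (background 6.13%) and in the 4-week transplant (5.69%).

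At 2-fold, 10 Hox genes were higher in the 2-week transplant than in the 8-week kidney, against 21.7% of all genes, and Hoxa7 alone was lower, against 22.5%. Of the 10, 6 were posterior (Hoxa10, Hoxa11, Hoxb9, Hoxc11, Hoxd10 and Hoxd11). In the 4-week transplant 7 were higher by 2-fold (background 22.3%), and Hoxa7 and Hoxa9 were lower (18.6%). The posterior genes had a median of 0.93 in the 2-week and 0.46 in the 4-week transplant relative to the 8-week kidney, and without the filter on dim probes the 4-week value was -0.05.

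**Figure D4:**
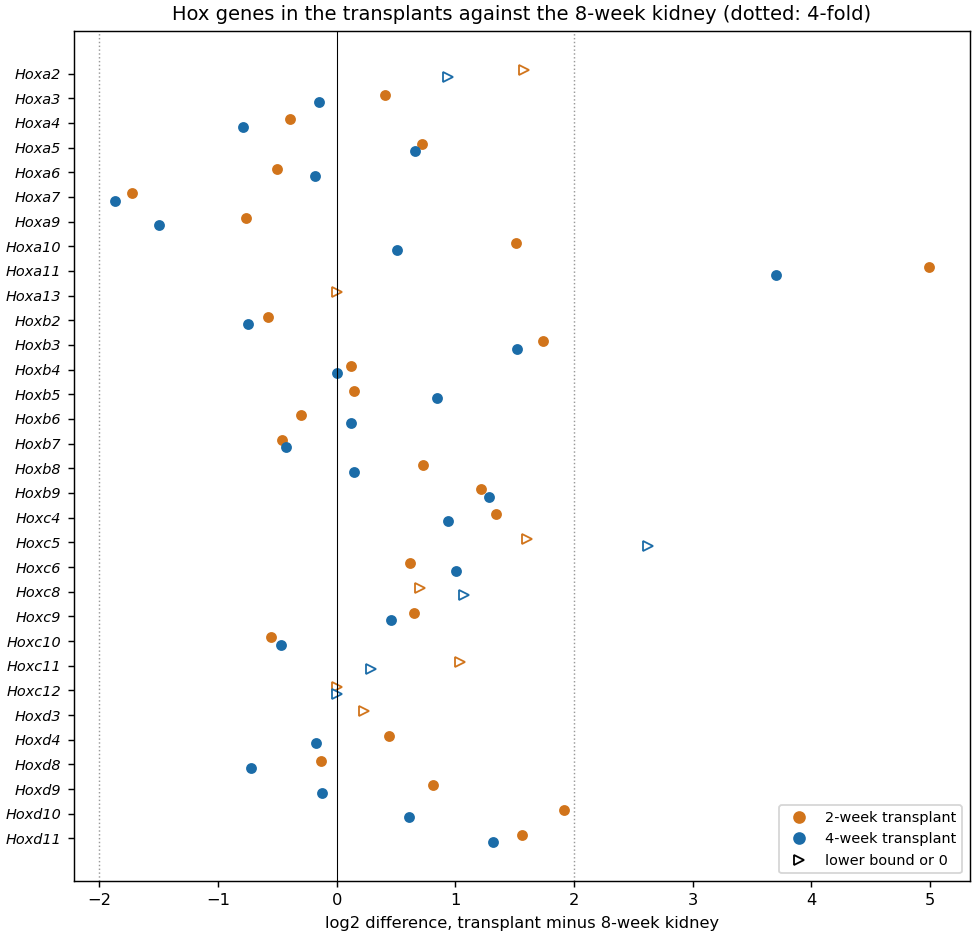
Log2 difference of each compared Hox gene between a transplant and the 8-week kidney (horizontal axis), for the 2-week (orange) and the 4-week transplant (blue), with genes down the page by cluster and paralogue number. Open triangles are lower bounds or bounds set to 0, and dotted lines mark 4-fold. Hoxa11 lies furthest to the right at 4.99 and 3.70, most other genes lie within 4-fold, and Hoxa7 lies furthest to the left.

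The transplants differed less from each other, across the 2 slides. Of 32 compared Hox genes none was 4-fold apart between the 4-week and the 2-week transplant, against 2.44% of all genes higher and 1.02% lower in the 4-week transplant. At 2-fold, Hoxc5 was higher in the 4-week transplant by 1.02 on the log2 scale, against 9.10% of all genes, while Hoxd10 (-1.31) and Hoxa11 (-1.29) were lower, against 5.68%. The median of the Hox genes was -0.23.

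Hox proteins bind DNA together with TALE homeodomain cofactors of the Pbx, Meis and Pknox families. Of 8 such genes, 5 were at least 4-fold lower in the 8-week than in the E13.5 kidney (background 12.6%) and none was higher (14.1%). Relative to the 8-week kidney, 5 of 8 were at least 4-fold higher in the 2-week transplant (11.8%) and 4 of 7 in the 4-week transplant (11.7%). Relative to the E13.5 kidney, 2 of 8 were at least 4-fold lower in the 2-week transplant (5.42%) and 2 of 8 in the 4-week transplant (6.87%).

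Meis1 had levels of 1.97 in the 2-week and 1.84 in the 4-week transplant, against 4.06 in the E13.5, 2.58 in the P0 and -1.47 in the 8-week kidney. It was 10.9-fold higher in the 2-week and 9.89-fold higher in the 4-week transplant than in the 8-week kidney, and 46.1-fold lower in the 8-week than in the E13.5 kidney. Meis2 was 4.35-fold higher in the 2-week and 4.06-fold higher in the 4-week transplant than in the 8-week kidney, Pknox2 15.3-fold and 9.05-fold, and Pbx3 4.34-fold and 6.51-fold. Meis3 was the fifth in the 2-week transplant. The 8-week kidney is thus the low array for Meis1, Meis2, Pknox2 and Pbx3, as for Hoxa11.

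The partners and targets of the group 11 proteins in the kidney mesenchyme did not share 1 course in the transplants. Six2, which keeps nephron progenitors undifferentiated, had levels of 2.14 in the 2-week and 0.38 in the 4-week transplant, against 4.68 in the E13.5 and 3.45 in the P0 kidney, and was not well above background in the 8-week kidney. It was at least 184-fold higher in the 2-week and at least 54.3-fold higher in the 4-week transplant than in the 8-week kidney. Gdnf, the growth factor that draws out the ureteric bud, had levels of -4.63 in the 2-week and -4.66 in the 4-week transplant, against 2.69 in the E13.5 and 2.10 in the P0 kidney, and was not well above background in the 8-week kidney. Six2 thus stayed above its level in the 8-week kidney in both transplants, while Gdnf was 160-fold lower in the 2-week and 163-fold lower in the 4-week transplant than in the E13.5 kidney.

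Itga8, the integrin subunit of the mesenchyme, had levels of 0.36 in the 2-week and 0.04 in the 4-week transplant, against 1.59 in the E13.5, 2.24 in the P0 and -1.38 in the 8-week kidney. Eya1 had levels of 4.33 in the 2-week and 4.02 in the 4-week transplant, against 4.57 in the E13.5, 4.55 in the P0 and 6.14 in the 8-week kidney. Itga8 was lowest in the 8-week kidney, and Eya1 was highest there. Pax2, the partner in the same complex, had levels of -5.34 in the 2-week and -5.50 in the 4-week transplant, against -4.10 in the E13.5, -4.03 in the P0 and -4.78 in the 8-week kidney. Its transplant levels lie close to the detection limit, and further Pax2 probes were well above background on 1 array or on none. The order of the arrays for Pax2 is therefore not reliable.

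**Figure D5:**
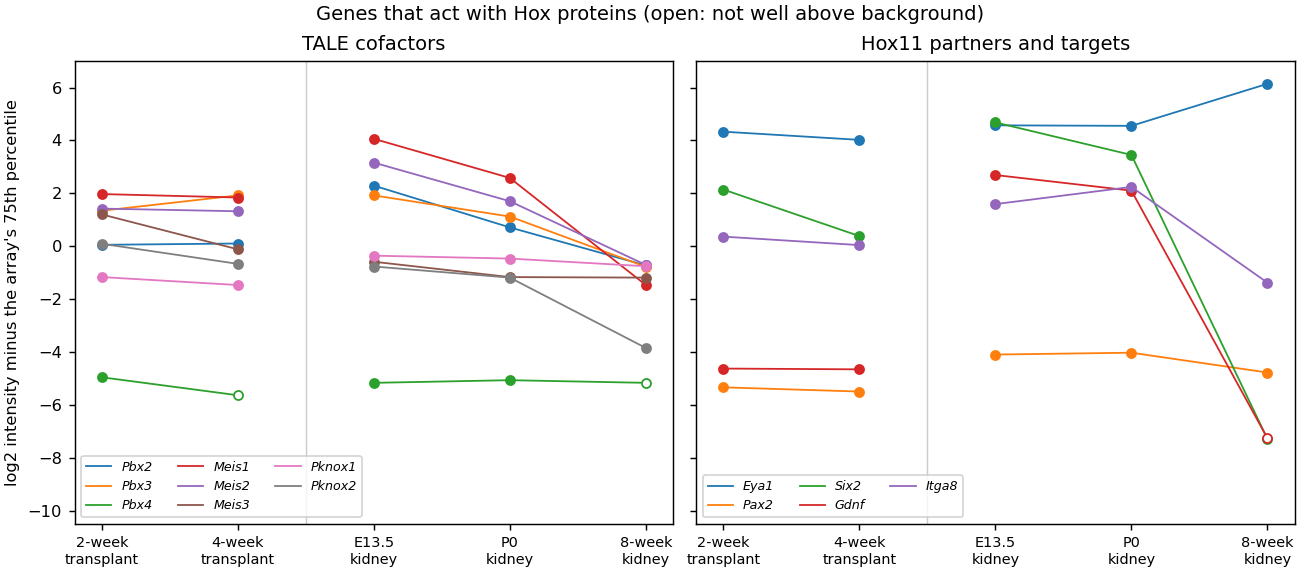
Level of 8 TALE cofactor genes (left) and 5 partners and targets of the group 11 Hox proteins (right) on each array, as log2 intensity minus the array's 75th percentile, with the transplants left of the kidneys and open points where the probe was not well above background. Meis1 is at 1.97 and 1.84 in the transplants, against -1.47 in the 8-week kidney, and Gdnf is at -4.63 and -4.66 in the transplants, against 2.69 in the E13.5 kidney.

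Polycomb and Trithorax proteins hold Hox clusters silent or active. Of 18 such genes, 3 were at least 4-fold lower in the 8-week than in the E13.5 kidney, a share near the 12.6% of all genes, and none was higher, against 14.1%. Ezh2, the methyltransferase of dividing cells, had levels of -0.69 in the 2-week and -1.12 in the 4-week transplant, against 2.53 in the E13.5, 1.03 in the P0 and -2.14 in the 8-week kidney. Cbx2, a chromodomain subunit, had levels of -2.62 in the 2-week and -3.23 in the 4-week transplant, against 1.25 in the E13.5, -1.13 in the P0 and -2.08 in the 8-week kidney. Both were lower in the transplants and the 8-week kidney than in the E13.5 kidney. Ezh1, the related methyltransferase of resting cells, was 3.48-fold higher in the 8-week than in the E13.5 kidney. None of 17 compared genes was 4-fold apart between either transplant and the 8-week kidney, against 11.8% of all genes higher and 8.67% lower in the 2-week and 11.7% higher and 7.80% lower in the 4-week transplant.

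Of the upstream regulators Cdx1, Cdx2, Cdx4 and Gdf11, Cdx2 and Cdx4 were well above background on no array. None of 7 compared genes that flank the clusters was 4-fold from the E13.5 kidney in either transplant, and 1 of 7 (Skap1, at the Hoxb cluster) was 4.11-fold lower in the 8-week kidney. With backgrounds of 5.42% to 14.1% in these comparisons, 7 genes are too few to set the flanking genes apart from all genes. Of 6 other transcripts from within the clusters, Hoxa11os, which is read opposite to Hoxa11, had levels of 1.49 in the 2-week and 0.40 in the 4-week transplant, against 3.86 in the E13.5, 3.20 in the P0 and -1.84 in the 8-week kidney. The 8-week kidney is the low array for both transcripts of this locus. Its log2 difference from the 8-week kidney was 3.33 in the 2-week and 2.24 in the 4-week transplant. Unlike Hoxa11, it was also at least 4-fold below the E13.5 kidney in the transplants, by -2.37 in the 2-week and -3.46 in the 4-week transplant on the log2 scale. Hoxb5os differed by less than 2-fold from the E13.5 kidney in both transplants and in the 8-week kidney.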

How the data were processed

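Each deposited scanner file holds the intensity of every spot, made with Agilent Feature Extraction (10.7.3.1) per the submitters' processing notes, and flags for signal well above background. The authors' deposited gene table is in log2 units and is titled as shifted by the 75th percentile. Its values matched unshifted log2 intensities centred by row (99.7% within 0.01, 18.2% with the shift).

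Spots flagged as outliers on any array were dropped, and no spot was saturated. Processed intensity was divided by the array's 75th percentile (1170.2 to 1720.1), and log2 values of a probe's spots were averaged. The probe with the highest mean level stood for its gene. On the dim side of a bound stands the higher of the probe's own value and the array's lowest value well above background. Where such a bound would reverse the sign, 0 was used. Probes were named through RefSeq (GRCm38.p6) or the authors' symbols, and 5588 of 39414 stayed without a name. The number of arrays limits the precision.

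R 4.3.3 with limma 3.58.1 and Python 3.11.15 were used. The call of fold differences was tested on simulated data with differences placed in brighter genes. The other steps and the size of the bounds were not tested in this way. The members, pathway lists and marker lists were chosen with earlier results of these data known. Posterior genes and any gene 4-fold apart are given on every array, and a few further genes as contrasts. A further Hox gene and a few genes of the lists are not reported here. Alternatives were 2 background corrections, 2 other scalings, the mean over probes, 2 filters and 2 thresholds.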

Additional observations from a re-analysis of the deposited data

How the results depend on the processing

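No paired analysis was possible because each group has 1 array. All 54 Hox differences of 4-fold in the 8 main comparisons kept their direction under every alternative that could be computed. Of these, 52 stayed at 4-fold under quantile normalization and 53 with the authors' deposited values. Leaving out the filter on dim probes could undo none, because it keeps measured differences and can only enlarge bounds. The mean over probes could change only genes with another probe, here Hoxb3 and Hoxd11. Neither of the 2 Hoxb3 differences stayed at 4-fold under it, and all 4 of Hoxd11 did. Under normexp background correction with negative control spots 33 of the 54 stayed at 4-fold, and under plain normexp 7 of the 13 that could be computed. The larger changes in the counts at 4-fold were as follows, with genes lower given first, and smaller changes are left out. For P0 against E13.5 kidney the count was 1 in place of 2 under that correction and when both probes had to be well above background. For 8-week against E13.5 kidney it was 10 in place of 16 with both well above background, 11 with negative controls and 21 in the authors' deposited table. For 8-week against P0 kidney it was 18 in place of 10 in the authors' deposited table, 6 with negative controls and 5 with plain normexp. Against the E13.5 kidney it was 5 in place of 10 (2-week transplant) and 8 in place of 13 (4-week transplant) with negative controls. For 4-week against 2-week transplant it was 1 in place of 0 in the authors' table and without the filter. For 4-week transplant against 8-week kidney it was 1 in place of 0 without the filter. Counts at least 4-fold higher than in the 8-week kidney were, for the 2-week transplant, 7 in place of 1 in the authors' table, 2 with the mean over probes and 3 without the filter, and for the 4-week transplant 1 in place of 2 with negative controls, with plain normexp and with both well above background. With the authors' table the median of all genes was -0.53 in place of -0.03 for 8-week against E13.5 kidney. The 2-fold threshold gave 2 higher and 10 lower (P0 against E13.5), 1 higher (8-week against E13.5), 1 higher and 21 lower (8-week against P0), 19 lower (2-week transplant against E13.5), 23 lower (4-week transplant against E13.5), 10 higher and 1 lower (2-week transplant against 8-week), 7 higher and 2 lower (4-week transplant against 8-week) and 1 higher and 2 lower (4-week against 2-week transplant). The 8-fold threshold gave 0, 7, 4, 5 and 5 lower for the first 5 of these, and 1 higher for the 4-week transplant against the 8-week kidney. The cause of the shifts between corrections was not tested. Plain normexp was not run with the E13.5 array, where its background mean was -992. Genes near background, such as Hoxa13, Hoxc8 and Hoxc12, have no reliable order.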
